A study of Saccharomyces cerevisiae with 20 samples.

Results

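The PAU, DAN, TIR and COS genes of budding yeast (Saccharomyces cerevisiae) were taken as every transcript whose RefSeq gene symbol is PAU, DAN, TIR or COS followed by a number. The rule found 42 of the 6106 transcripts quantified, which were 24 PAU, 2 DAN, 4 TIR and 12 COS genes. RNA came from xrn1-H41A cells and from WT cells of the BY4741 laboratory strain, both grown to exponential phase in YPD, a rich medium, so the WT cells are the reference for the mutant and share its background. Xrn1 is an exoribonuclease that degrades RNA from its 5′ end and also removes NAD caps, and the H41A substitution is described by the study as removing the second activity and sparing the first. Each strain was sequenced in 3 assays with 3 libraries each. NADcapPro libraries hold RNA treated with Dcs1, an enzyme that removes m7G caps, and then with ADP-ribosyl cyclase (ADPRC), which swaps the nicotinamide of an NAD cap for an azide that is joined to biotin by copper-free click chemistry (SPAAC) and pulled down on streptavidin. SPAAC libraries went through the same capture with no Dcs1 step, and RNA-seq libraries hold the poly(A) RNA with no capture. The control libraries made without ADPRC could not be matched to single samples by name and were not used here.

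PAU genes (seripauperins) form the largest gene family of yeast and encode small cell wall mannoproteins. DAN and TIR genes encode serine-rich mannoproteins that are anchored in the cell wall through GPI, and both families, like PAU, are known to be repressed by heme in air and induced without oxygen. Upc2, a sterol-responsive activator, is known to bind 2 motifs at such genes, the anaerobic response element AR1 and the sterol response element SRE. COS genes encode conserved membrane proteins that act in the sorting of cargo into endosomes, and their silencing near telomeres depends on the Sir proteins, among them the NAD-dependent deacetylase Sir2. An NAD cap is a nicotinamide adenine dinucleotide at the 5′ end of an RNA, where most mRNAs carry an m7G cap.

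Copies within a family share sequence, which sets how far one member can be told from another, so the openings of coding regions are shown first. Capitals mark bases that differ from PAU6 in the PAU lines and from COS2 in the COS lines. All positions are on build R64.
PAU6, chrXIV:781918-781947, plus strand: atggtcaaattaacttcaatcgctgctggt
PAU18, chrXII:13416-13445, minus strand: atggtcaaattaacttcaatcgctgctggt
PAU5, chrVI:99570-99599, minus strand: atggtcaaattaacttcaatcgcCgctggt
PAU23, chrXII:223030-223059, minus strand: atggtcaaaCtaacttcaatTgTtgctggt
COS2, chrII:811450-811479, minus strand: atgaaagagaatgaacttaaaaatgagaag
COS6, chrVII:1082700-1082729, minus strand: atgaaagagaatgaacttaaaaatgagaag
COS8, chrVIII:6401-6430, plus strand: atgaaagagaatgaaGtCaaaGatgagaaA

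PAU6 and PAU18 are identical over the whole transcript, as are PAU1 and PAU14, PAU21 and PAU22, and COS2 and COS3, so 8 members form 4 pairs whose reads cannot be separated. Of the 24 PAU transcripts, 15 had at least 10% of their 31-mers (stretches of 31 bases) in no other transcript, 5 had at least 50% and 7 had 0. PAU5 had 89.7% and PAU23 80.3%. All DAN and TIR transcripts had 98.2% or 100% of their own, and COS10, COS12 and COS111 had 100%. No member shared a 31-mer with a transcript outside its family, so the summed counts of a family do not depend on how reads were divided among its copies, and the sums are given first below. Single PAU and COS members with few 31-mers of their own are uncertain.

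The label subtelomeric held for 30 of the 42 genes, which lie within 30 kb of a chromosome end. These were 19 of the 24 PAU and 11 of the 12 COS genes. DAN1 (chrX:708811-709707, minus strand) and DAN4 (chrX:712255-715740, minus strand) lie 36 kb and just over 30 kb from the end of chromosome X, and the 4 TIR genes lie 105.4 to 346.2 kb from an end. The exception among the COS genes was COS111 (chrII:629168-631942, plus strand), 181.2 kb from an end, a gene named for sensitivity to ciclopirox olamine that shares no 31-mer with the others. At 2775 nt, against a COS median of 1146 nt, it is a member by its symbol alone and enters the COS sum. What is written above of COS proteins may not hold for it. PAU transcripts were short, at 129 to 495 nt with a median of 363 nt, against a median of 1182 nt over all transcripts.

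AR1 (TCGTTTAG or TCGTTCAG, both strands) was searched in the 600 nt upstream of each coding start, because it is the element through which PAU, DAN and TIR genes are known to be induced. It was present at 18 of the 24 PAU genes (75.0%), at both DAN genes, at 1 of the 4 TIR genes and at 0 of the 12 COS genes, against 3.7% of 5999 genes with a full window. SRE (TCGTATA, both strands) was present at 21 PAU genes (87.5%), both DAN genes, 2 TIR genes and 1 COS gene, against 8.6% of all. As spelled here AR1 and SRE cannot overlap, so the lack of overlapping matches says nothing about these windows. In these windows, written 5′ to 3′ on the gene's own strand, capitals mark AR1 or its reverse complement.
DAN1, chrX:709869-709898, 180 nt upstream: ctaacaaaacaTCGTTCAGgaacagagaat
DAN4, chrX:715918-715947, 196 nt upstream: taagatctccaTCGTTCAGgaactgtaaaa
TIR4, chrXV:344101-344130, 223 nt upstream: gaacagggttcCTAAACGAtgcatttctaa
PAU18, chrXII:13661-13690, 234 nt upstream: agatgtacgatTCGTTCAGaaacaagagca
PAU6, chrXIV:781481-781510, 426 nt upstream: acaataagcttCTGAACGAgggtcttaaat
PAU6 and PAU18, with identical transcripts, differed in the placing and strand of the match. The 30 bases around the match nearest the coding start were identical at PAU3, PAU4, PAU9, PAU11 and PAU16. They were also identical at PAU19, PAU21 and PAU22. Upstream windows of PAU genes are thus in part copies, and the PAU shares do not count independent genes. A match describes letters in a window and was not tested as a site of binding.

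The 18 libraries compared held 13038320 to 33816015 estimated counts each, so 3 counts were worth 0.0887 to 0.23 CPM (counts in every 1000000 counts of a library). XRN1 itself had 325, 319 and 325 CPM in xrn1-H41A RNA-seq, against 500, 488 and 488 CPM in WT RNA-seq, and counts per transcript cannot show the substitution. Levels below are CPM scaled by TMM over the 18 libraries, and differences are log2 fold changes with their standard errors (SE) from edgeR's quasi-likelihood test on the whole table, with p-values adjusted over all transcripts by Benjamini-Hochberg. A transcript or sum is called enriched, depleted, risen or fallen at 2-fold or more with an adjusted p of at most 0.01. The study's methods call the 3 replicates of a strain independent biological ones, and p-values measure the spread between them. Cultures were sequenced in bulk, so fewer expressing cells and less RNA per cell cannot be told apart.

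The PAU sum was highest in the xrn1-H41A NADcapPro libraries, at 142, 133 and 134 CPM, against 60.4, 65.4 and 73.1 CPM in xrn1-H41A RNA-seq. In WT it was 68.5, 71.4 and 66.7 CPM in NADcapPro, against 36.6, 37.8 and 34.6 CPM in RNA-seq. The groups did not overlap in either strain. The sum was enriched in xrn1-H41A, by 1.10 on the log2 scale (SE 0.0547, edgeR adjusted p = 6.72e-11), while in WT its 0.93 (SE 0.0489, edgeR adjusted p = 2.5e-10) stayed under 2-fold. With the trend of fold change on transcript length taken out, the same differences were 0.69 and 0.45.

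**Figure D1:**
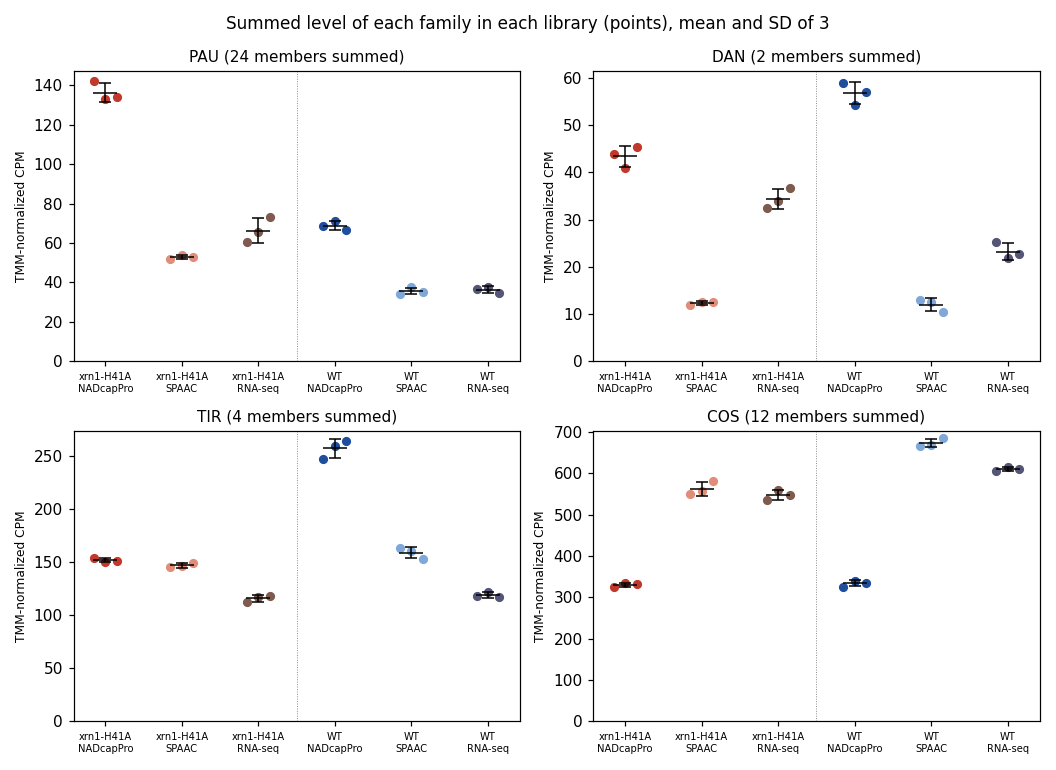
Summed level of each family in CPM (y axis) by strain and assay (x axis), with a point for each library and a bar for the mean and SD of 3. DAN and TIR sums are highest in WT NADcapPro, the PAU sum in xrn1-H41A NADcapPro, where its 3 libraries lie between 133 and 142 CPM, and COS sums are lowest in the NADcapPro libraries of both strains.

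The DAN sum was 43.8, 41 and 45.3 CPM in xrn1-H41A NADcapPro, against 32.4, 33.9 and 36.7 CPM in xrn1-H41A RNA-seq. WT cells had 58.9, 54.3 and 57.1 CPM in NADcapPro, against 25.2, 21.8 and 22.7 CPM in RNA-seq. The sum was enriched in WT, by 1.31 (SE 0.0598, edgeR adjusted p = 5.44e-11), and in xrn1-H41A it was higher by 0.40 (edgeR adjusted p = 1.76e-05), under 2-fold. The TIR sum was also higher in NADcapPro than in RNA-seq of each strain. It was 154, 150 and 151 CPM in xrn1-H41A NADcapPro, against 112, 117 and 118 CPM in xrn1-H41A RNA-seq. In WT it was 247, 259 and 264 CPM in NADcapPro, against 118, 122 and 117 CPM in RNA-seq. It was enriched in WT, by 1.11 (SE 0.039, edgeR adjusted p = 3.33e-12), and higher by 0.44 (edgeR adjusted p = 1.6e-08) in xrn1-H41A. Without the length trend the WT value for TIR was 0.78 and no longer passed 2-fold.

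The COS sum lay the other way. It was 326, 335 and 331 CPM in xrn1-H41A NADcapPro, against 536, 559 and 547 CPM in xrn1-H41A RNA-seq, and 326, 340 and 335 CPM in WT NADcapPro, against 605, 615 and 609 CPM in WT RNA-seq. All 6 NADcapPro libraries were below all 6 RNA-seq libraries. The differences of −0.67 (edgeR adjusted p = 2.02e-11) in xrn1-H41A and −0.87 (SE 0.0308, edgeR adjusted p = 3.87e-12) in WT were under 2-fold.

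Of the 42 members, 39 passed the filter on low counts in the WT comparison of NADcapPro with RNA-seq, and 13 were enriched and 5 depleted, where 13.1% and 9.85% of all 6020 transcripts tested were. The enriched ones were 9 PAU genes, DAN1 and 3 TIR genes, and the depleted ones were COS4, COS5, COS6, COS7 and COS8. PAU21 and PAU22, which are counted as 2 of them, cannot be told apart. The enriched count was 8 with a minimum of 10 counts, and 8 with 9 depleted when the length trend was removed. In xrn1-H41A 35 members passed the filter, and 12 were enriched and 4 depleted, against 14.3% and 9.87% of 6046 transcripts. These were 10 PAU genes with COS4 and COS12 on the enriched side and COS5, COS7, COS8 and COS10 on the depleted side. PAU15, PAU21, PAU22 and PAU24 were enriched in both strains, COS5, COS7 and COS8 were depleted in both, and COS4 was called in opposite directions. The median over PAU members that passed was 0.86 in WT (21 members) and 1.16 in xrn1-H41A (17 members), and over the 12 COS members it was −0.97 and −0.69, beside medians over all transcripts near 0. Members at few counts pass that filter only where they are high, as with PAU9, which had 22, 11 and 14 counts in WT NADcapPro, against 0, 0 and 3 counts in WT RNA-seq.

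**Figure D2:**
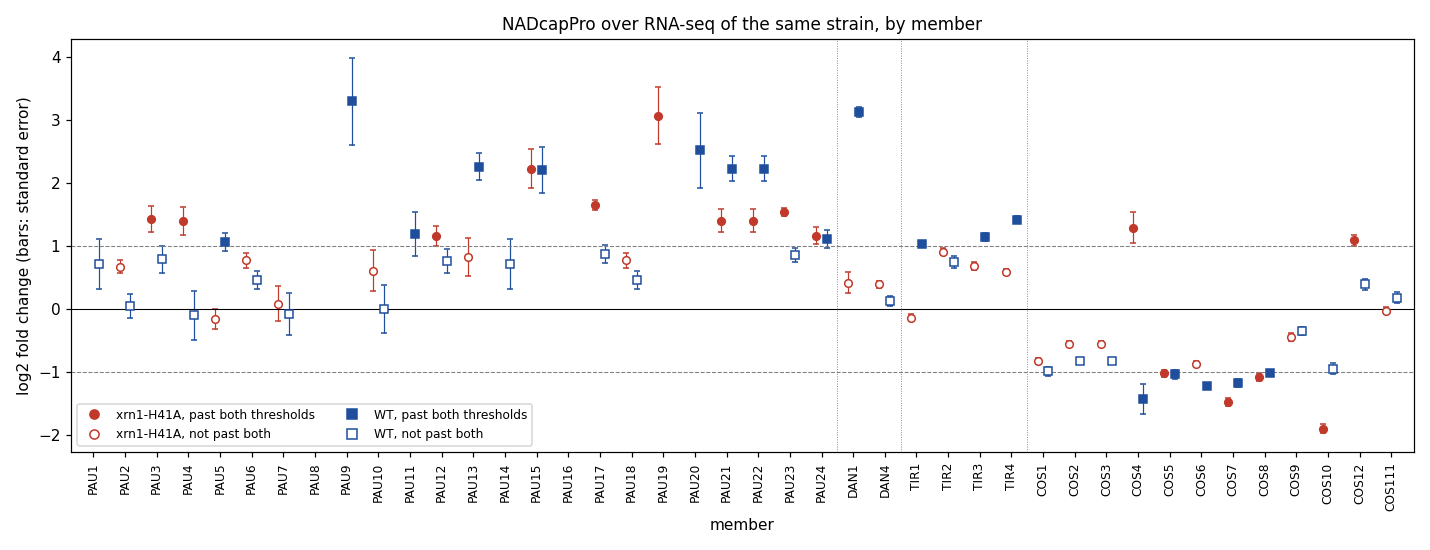
Log2 fold change of NADcapPro over RNA-seq (y axis, bars are 1 SE) for each member that passed the count filter (x axis, grouped by family), with circles for xrn1-H41A, squares for WT, and filled marks for those past both thresholds. DAN1 reaches 3.13 in WT and 0.42 in xrn1-H41A, and most COS members lie below 0.

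DAN1 and DAN4, neighbours on chromosome X, had unlike values in WT NADcapPro. DAN1, a wall mannoprotein made without oxygen, had 5.59, 4.01 and 5.66 CPM in xrn1-H41A NADcapPro, against 3.83, 4.27 and 3.61 CPM in xrn1-H41A RNA-seq. In WT it had 37.0, 35.3 and 36.4 CPM in NADcapPro, against 4.24, 4.25 and 4 CPM in RNA-seq. The WT NADcapPro libraries thus stood apart from all the others, and the enrichment of 3.13 (SE 0.0817, edgeR adjusted p = 2.52e-13) in WT compared with 0.42 (SE 0.162, edgeR adjusted p = 0.0257) in xrn1-H41A. The difference between strains, −2.70 (SE 0.181, edgeR adjusted p = 2.68e-10), was itself past both thresholds. DAN1 made up 62.8 to 65% of the DAN sum in WT NADcapPro libraries, against 16.8 to 19.5% in WT RNA-seq libraries.

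DAN4, also an anaerobic wall mannoprotein, carried most of the DAN counts in xrn1-H41A NADcapPro and in RNA-seq of both strains, while DAN1 held 42.1 to 53.2% of the sum in xrn1-H41A SPAAC and 50.3 to 56.1% in WT SPAAC. It had 38.2, 37.0 and 39.6 CPM in xrn1-H41A NADcapPro, against 28.6, 29.6 and 33.1 CPM in xrn1-H41A RNA-seq, and 21.9, 19.0 and 20.7 CPM in WT NADcapPro, against 21.0, 17.5 and 18.7 CPM in WT RNA-seq. Its NADcapPro difference was 0.39 (edgeR adjusted p = 2.58e-05) in xrn1-H41A and 0.13 (SE 0.083, edgeR adjusted p = 0.167) in WT, where the groups overlapped. In SPAAC it had 6.86, 5.89 and 7.30 CPM in xrn1-H41A and 6.39, 5.52 and 4.94 CPM in WT, and was depleted against RNA-seq in both, by −2.09 (SE 0.0962, edgeR adjusted p = 6.42e-11) and −1.76 (SE 0.113, edgeR adjusted p = 1.52e-09). DAN4 is the longest member, at 3486 nt, and with the length trend removed these became −0.78 and −0.29, neither of them past 2-fold.

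TIR1 (chrV:175248-176012, plus strand), a wall mannoprotein induced by cold shock and needed for growth without oxygen, was the TIR gene with the highest level per length in WT RNA-seq. In xrn1-H41A NADcapPro it was 25.6 to 26.5% of the TIR sum. It had 40.7, 38.5 and 38.5 CPM in xrn1-H41A NADcapPro, against 41.2, 47.9 and 45.4 CPM in xrn1-H41A RNA-seq. WT cells had 131, 140 and 145 CPM in NADcapPro, against 68.2, 70.3 and 65.1 CPM in RNA-seq. It was enriched in WT, by 1.03 (SE 0.0428, edgeR adjusted p = 2.16e-11), its value in xrn1-H41A was −0.14 (SE 0.0584, edgeR adjusted p = 0.0342), and the strain difference of −1.16 (SE 0.076, edgeR adjusted p = 1.95e-10) passed both thresholds. The WT enrichment fell below 2-fold without replicate 3 (0.97) and with the length trend removed (0.62).

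TIR4 (chrXV:344335-345798, plus strand) and TIR3 (chrIX:333727-334536, plus strand), also needed for anaerobic growth, were enriched in WT and under 2-fold in xrn1-H41A. TIR4 had 44.0, 44.0 and 43.3 CPM in xrn1-H41A NADcapPro against 29.6, 29.7 and 31.4 CPM in xrn1-H41A RNA-seq, and 56.1, 57.6 and 56.6 CPM in WT NADcapPro against 20.2, 20 and 22.9 CPM in WT RNA-seq. Its log2 fold change was 1.42 (SE 0.0591, edgeR adjusted p = 2.24e-11) in WT and 0.59 (SE 0.0505, edgeR adjusted p = 3.76e-08) in xrn1-H41A. For TIR3 the values were 1.15 (SE 0.0639, edgeR adjusted p = 5.16e-10) in WT, or 0.76 without the length trend, and 0.68 (SE 0.0648, edgeR adjusted p = 1.26e-07) in xrn1-H41A. The strain differences of −0.82 for TIR4 and −0.46 for TIR3 had edgeR adjusted p = 1.8e-08 and 0.000211 and were under 2-fold. TIR2 (chrXV:346195-346950, minus strand), the cold shock partner of TIR1, was higher by 0.75 in WT and 0.91 in xrn1-H41A and was not called in either.

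**Figure D3:**
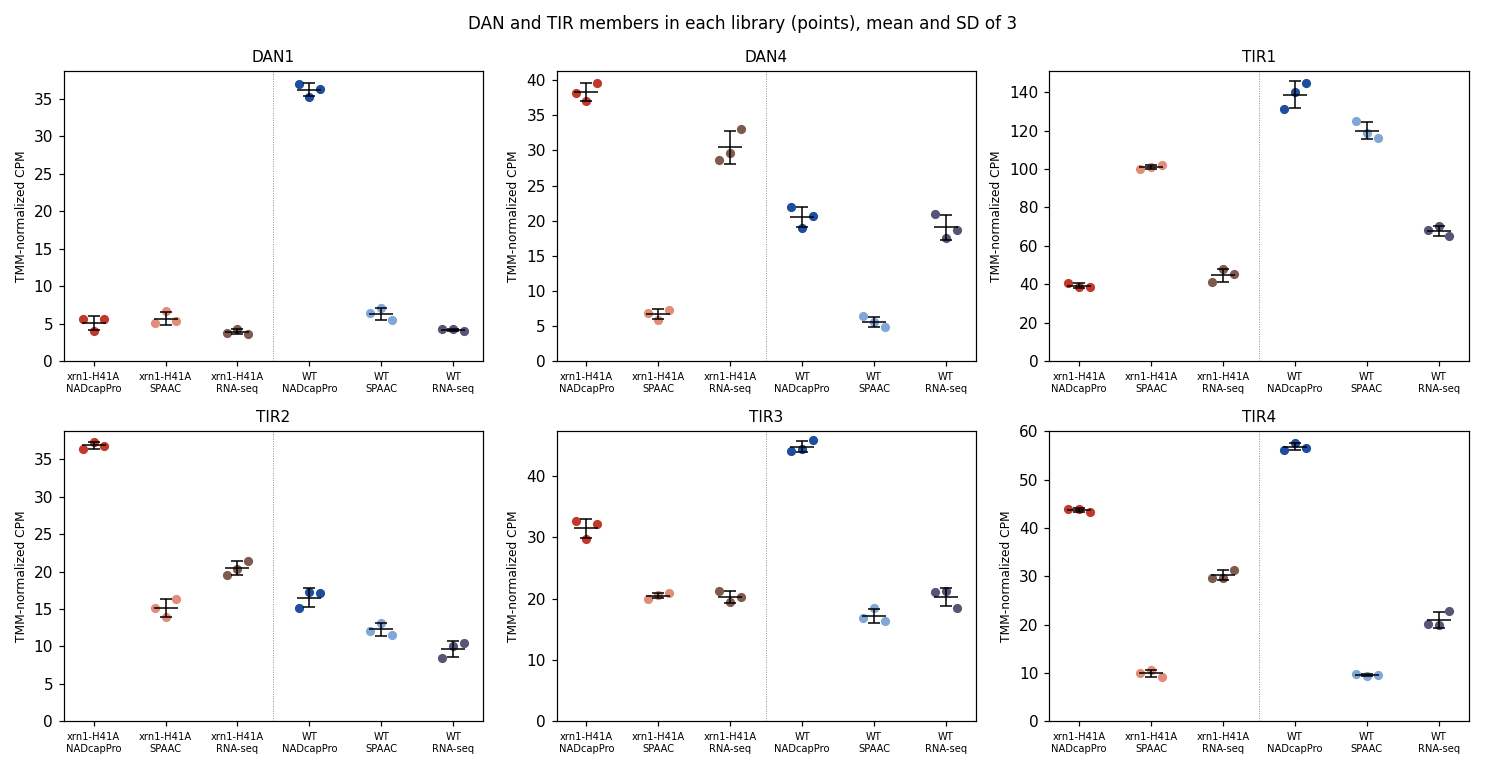
Level in CPM (y axis) of the DAN and TIR genes in each library by strain and assay (x axis), with a panel for each gene, a point for each library and a bar for the mean and SD of 3. DAN1 and TIR1 are high in WT NADcapPro and low in xrn1-H41A NADcapPro, while DAN4 and TIR2 are highest in xrn1-H41A NADcapPro.

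Among PAU genes, PAU23 (chrXII:222685-223059, minus strand; RefSeq lists DAN2 as a synonym) had the highest level per length in WT RNA-seq. It had 32.3, 31.4 and 32.6 CPM in xrn1-H41A NADcapPro, against 11.5, 10.7 and 12.3 CPM in xrn1-H41A RNA-seq. In WT the values were 9.15, 9.65 and 9.53 CPM in NADcapPro, against 4.88, 5.28 and 5.31 CPM in RNA-seq. It was enriched in xrn1-H41A, by 1.54 (SE 0.0699, edgeR adjusted p = 2.02e-11), against 0.86 (SE 0.111, edgeR adjusted p = 5.27e-06) in WT, and the strain difference was 0.69 (SE 0.12, edgeR adjusted p = 4.68e-05), under 2-fold.

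PAU5 (chrVI:99231-99599, minus strand), which has been linked with protection from killer toxin and has the largest share of 31-mers of its own, had the opposite pattern. It had 6.17, 5.18 and 5.66 CPM in xrn1-H41A NADcapPro, against 4.85, 7.51 and 7.66 CPM in xrn1-H41A RNA-seq, where the groups overlapped. In WT it had 7.92, 7.66 and 7.86 CPM in NADcapPro, against 4.72, 3.61 and 3.36 CPM in RNA-seq. The enrichment was 1.06 (SE 0.14, edgeR adjusted p = 7.04e-06) in WT, and the strain difference was −1.20 (SE 0.23, edgeR adjusted p = 0.000141). That WT call was lost without replicate 3 (0.95) and without the length trend (0.57), and the strain difference was not called without replicate 2 (−1.0).

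PAU13 and PAU4 were at low levels and had 15% and 18.6% of 31-mers of their own. PAU13 (chrVIII:11923-12285, minus strand) had 1.42, 1.52 and 1.28 CPM in xrn1-H41A NADcapPro against 0.589, 0.689 and 1.43 CPM in xrn1-H41A RNA-seq, and 3.25, 2.96 and 3.28 CPM in WT NADcapPro against 0.720, 0.601 and 0.673 CPM in WT RNA-seq. It was enriched in WT, by 2.26 (SE 0.215, edgeR adjusted p = 2.09e-07), and differed between strains by −1.42 (SE 0.387, edgeR adjusted p = 0.00308), a call that was lost without replicate 2 (−1.61) and without replicate 3 (−1.0). PAU4 (chrXII:1062919-1063281, plus strand) had 2.46, 2.31 and 2.37 CPM in xrn1-H41A NADcapPro against 0.720, 0.999 and 1.18 CPM in xrn1-H41A RNA-seq, and 0.433, 0.932 and 0.547 CPM in WT NADcapPro against 0.240, 0.773 and 0.814 CPM in WT RNA-seq. It was enriched in xrn1-H41A, by 1.40 (SE 0.222, edgeR adjusted p = 3.26e-05), though only by 0.98 without the length trend. Its strain difference of 1.51 (edgeR adjusted p = 0.00676) was not called when any of the 3 replicate numbers was left out (1.29, 1.83 and 1.31).

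The COS sum was led by COS6 (chrVII:1081584-1082729, minus strand). COS6 had 57.6, 60.8 and 61.2 CPM in xrn1-H41A NADcapPro against 106, 120 and 116 CPM in xrn1-H41A RNA-seq, and 72.8, 71.6 and 71.9 CPM in WT NADcapPro against 165, 175 and 163 CPM in WT RNA-seq. It was depleted in WT, by −1.22 (SE 0.0353, edgeR adjusted p = 6.17e-13), and lower by 0.88 on the log2 scale in xrn1-H41A, under 2-fold. COS10 (chrXIV:779916-781040, plus strand) had 9.96, 10 and 10.3 CPM in xrn1-H41A NADcapPro against 41.1, 36.9 and 38.9 CPM in xrn1-H41A RNA-seq, and was depleted there by −1.90 (SE 0.0691, edgeR adjusted p = 1.7e-12). In WT it had 9.68, 10.3 and 9.44 CPM in NADcapPro against 19.5, 19.8 and 17.9 CPM in RNA-seq, a difference of −0.95 (edgeR adjusted p = 1.05e-07). The COS10 levels in NADcapPro overlapped between strains, and those in RNA-seq did not.

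COS12 and COS4 were the COS genes enriched in the mutant, and COS12 was also higher in WT NADcapPro than in WT RNA-seq. COS12 (chrVII:2790-3932, plus strand) had 26.3, 27.5 and 24.0 CPM in xrn1-H41A NADcapPro against 13.3, 11.1 and 13.6 CPM in xrn1-H41A RNA-seq, an enrichment of 1.09 (SE 0.0882, edgeR adjusted p = 1.78e-08) that was 0.95 without replicate 2 and 0.96 without the length trend. In WT it had 20, 23.2 and 19.4 CPM in NADcapPro against 15.6, 16.4 and 15.8 CPM in RNA-seq. Its log2 fold change there was 0.39 (SE 0.0844, edgeR adjusted p = 0.000692), under 2-fold. COS4 (chrVI:6426-7565, plus strand), with 17.7% of 31-mers of its own, had 2.17, 2.31 and 1.56 CPM in xrn1-H41A NADcapPro against 0.884, 0.861 and 0.748 CPM in xrn1-H41A RNA-seq, and 0.649, 0.865 and 0.644 CPM in WT NADcapPro against 1.76, 1.76 and 2.19 CPM in WT RNA-seq. It was enriched by 1.29 (edgeR adjusted p = 0.00018) in xrn1-H41A and depleted by −1.43 (edgeR adjusted p = 6.44e-05) in WT, and the strain difference was 2.73 (SE 0.334, edgeR adjusted p = 8.15e-07). COS4 reads are shared in large part with other COS genes, and the part of that sharing in the result was not tested.

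**Figure D4:**
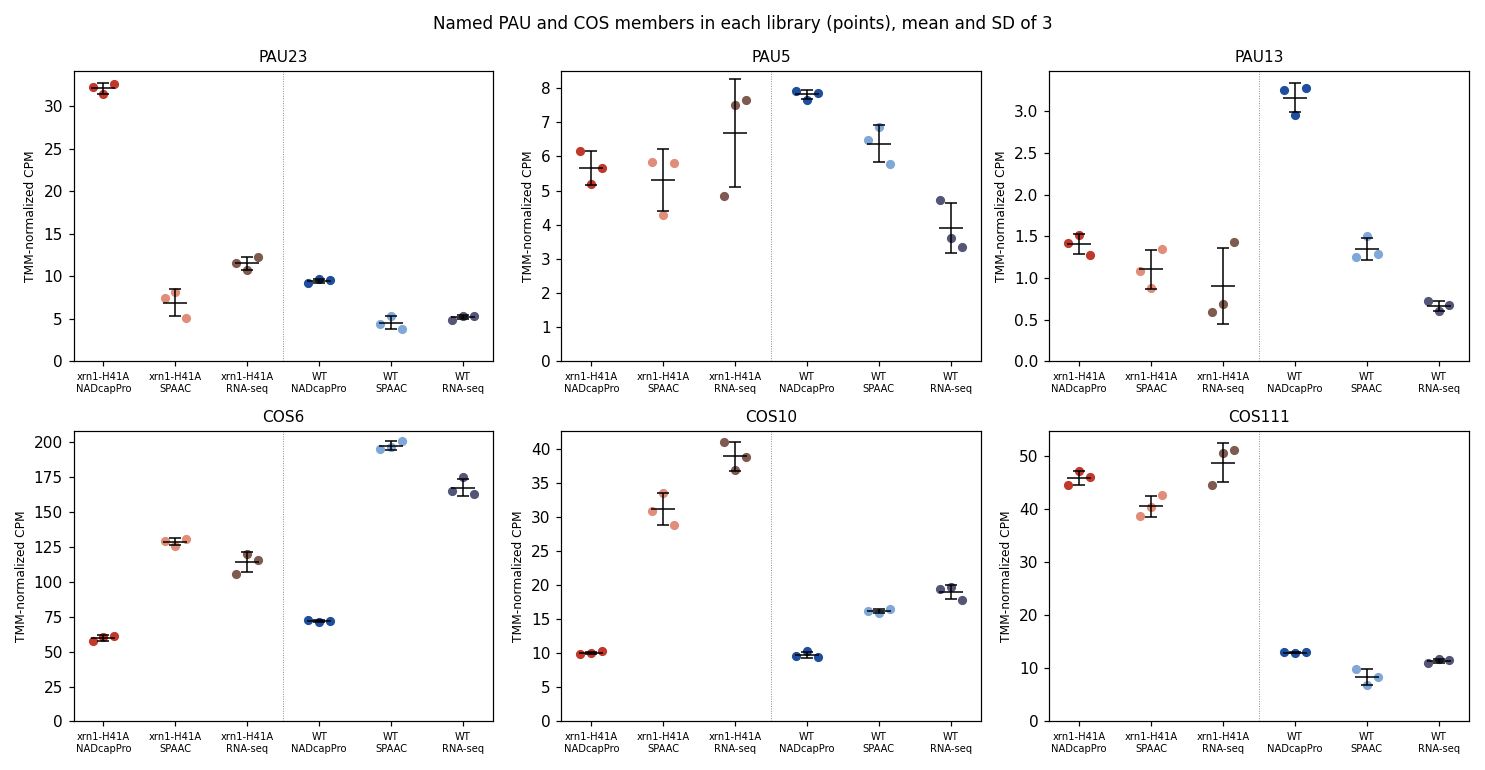
Level in CPM (y axis) of 3 PAU and 3 COS genes in each library by strain and assay (x axis), with a panel for each gene, a point for each library and a bar for the mean and SD of 3. PAU23 is highest in xrn1-H41A NADcapPro, COS6 and COS10 are lower in NADcapPro than in RNA-seq of the same strain, and COS111 is higher in every xrn1-H41A library than in every WT library.

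In the difference between strains of NADcapPro over RNA-seq, 40 members passed the filter, and 2 were higher in xrn1-H41A (PAU4 and COS4) and 4 lower (PAU5, PAU13, DAN1 and TIR1), against 4.19% and 2.94% of 6059 transcripts. Of the family sums, DAN differed by −0.91 (SE 0.0854, edgeR adjusted p = 2.55e-08), TIR by −0.67 (edgeR adjusted p = 1.15e-09) and COS by 0.19 (edgeR adjusted p = 0.000318), all under 2-fold, and PAU by 0.17 (edgeR adjusted p = 0.0621). For SPAAC over RNA-seq, 0 members were higher in xrn1-H41A and 1 was lower (PAU5, −1.04), against 0.0998% and 0.566% of 6010 transcripts. That call was lost without replicate 2 or replicate 3, in every DESeq2 alternative, with a replicate block and with the length trend removed. The enrichment of the DAN and TIR sums in NADcapPro was thus the smaller one in xrn1-H41A. Their members were not uniform. DAN1, TIR1, TIR3 and TIR4 had negative strain differences, while DAN4 (0.28) and TIR2 (0.17) had positive ones, neither at an adjusted p of at most 0.01.

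Capture without Dcs1 gave other values. The SPAAC sums for PAU were 51.7, 53.8 and 52.8 CPM in xrn1-H41A and 34.3, 37.5 and 35.1 CPM in WT, and their differences from RNA-seq were −0.24 (edgeR adjusted p = 0.00258) and −0.03 (edgeR adjusted p = 0.64). The DAN sum, at 11.9, 12.6 and 12.6 CPM in xrn1-H41A SPAAC, was depleted by −1.39 (edgeR adjusted p = 3.67e-10) in that strain, or −0.87 without the length trend, and in WT its difference was −0.95 (edgeR adjusted p = 2.31e-07), or −0.33 without that trend. Only DAN4 was lower. DAN1 was higher than in RNA-seq, by 0.60 (edgeR adjusted p = 0.00382) in xrn1-H41A and 0.61 (edgeR adjusted p = 0.00118) in WT. Without the trend the PAU values were −0.66 in xrn1-H41A and −0.51 in WT. The TIR sum was higher by 0.43 in xrn1-H41A and 0.41 in WT, or 0.13 and 0.08 without the trend. The COS sum was higher by 0.13 in xrn1-H41A and 0.14 in WT, though −0.26 and −0.18 when scaled by library totals. Of 34 members tested in each strain, 1 was enriched (TIR1) and 2 depleted (DAN4 and TIR4) in xrn1-H41A, against 4.39% and 13.8% of 5968 transcripts, and without replicate 1 the depleted count was 5. In WT 1 was enriched (PAU13) and 5 depleted (PAU6, PAU7, PAU18, DAN4 and TIR4), against 4.77% and 15.9% of 5979 transcripts. The PAU13 value of 1.02 was no longer called without replicate 2 (0.87) or replicate 3 (1.08), by DESeq2's Wald test or apeglm, with library totals (0.71) or without the length trend (0.55).

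TIR1 and TIR4 moved in opposite directions under SPAAC. TIR1 had 100, 101 and 102 CPM in xrn1-H41A SPAAC and 125, 119 and 116 CPM in WT SPAAC, and was enriched against RNA-seq in xrn1-H41A by 1.26 (SE 0.0506, edgeR adjusted p = 1.43e-11), or 0.88 without the length trend, with 0.82 in WT. TIR4 had 10, 10.7 and 9.14 CPM in xrn1-H41A SPAAC and 9.81, 9.31 and 9.54 CPM in WT SPAAC, and was depleted by −1.51 (edgeR adjusted p = 2.54e-10) and −1.15 (edgeR adjusted p = 1.09e-08). TIR1 made up 68.8 to 69.1% of the TIR sum in xrn1-H41A SPAAC libraries and 74.5 to 76.3% in WT SPAAC libraries.

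Set against SPAAC, the DAN sum rose in NADcapPro by 1.61 (edgeR adjusted p = 1.04e-12) in xrn1-H41A and by 2.11 (edgeR adjusted p = 4.39e-16) in WT. In xrn1-H41A only DAN4 rose (2.31, edgeR adjusted p = 9.52e-14), with DAN1 at −0.34 (edgeR adjusted p = 0.0462). Both rose in WT, DAN4 by 1.73 and DAN1 by 2.37. The PAU sum rose by 1.17 (edgeR adjusted p = 1.29e-13) in xrn1-H41A and was higher by 0.81 in WT. The COS sum fell by 1.15 on the log2 scale in WT (edgeR adjusted p = 4.94e-18), and its −0.97 in xrn1-H41A stayed just under 2-fold. Scaled by library totals, the COS values were −0.55 in WT and −0.16 in xrn1-H41A. The TIR sum differed by −0.16 (SE 0.0317, edgeR adjusted p = 0.000189) in xrn1-H41A and by 0.55 (SE 0.0331, edgeR adjusted p = 6.2e-12) in WT, and this difference between strains was not tested. In xrn1-H41A it was 0.64 when scaled by library totals. TIR1 was lower in NADcapPro than in SPAAC in xrn1-H41A, by −1.57 (edgeR adjusted p = 2.01e-15), against 0.07 (edgeR adjusted p = 0.0942) in WT. In xrn1-H41A 13 of 35 members were higher and 9 lower, against 18.7% and 17.8% of 6039 transcripts, and in WT 11 of 39 were higher and 7 lower, against 13.3% and 11.3% of 6017. The 7 in WT were COS1 to COS7, of which COS2 and COS3 cannot be told apart. With library totals the lower count was 1 in xrn1-H41A and 0 in WT. NADcapPro and RNA-seq comparisons share libraries with these, so the values stand side by side and are not separate evidence.

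RNA levels of the families differed between strains without any capture. The PAU sum, given above, was higher in all 3 xrn1-H41A RNA-seq libraries than in the WT ones, by 0.86 (SE 0.0667, edgeR adjusted p = 1.63e-08), under 2-fold. DAN was higher by 0.57 (edgeR adjusted p = 4.95e-06), COS lower at −0.16 (edgeR adjusted p = 0.0011, and 0.02 when scaled by library totals), and TIR differed by −0.04 (edgeR adjusted p = 0.355). Among the 12 COS members, 7 were lower and 4 higher at an adjusted p of at most 0.01 and any fold. The COS sum includes COS111, which was higher by 2.09. Of 34 members tested, 9 rose and 1 fell, against 7.69% and 2.53% of 5965 transcripts. Those that rose were PAU2, PAU7, PAU12, PAU21, PAU22, PAU23, TIR2, COS10 and COS111, and COS4 fell, though not without replicate 3 (−1.01). Without replicate 3 the count that rose was 5.

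COS111 had the largest of these changes among the 42. It had 44.5, 50.5 and 51.1 CPM in xrn1-H41A RNA-seq, against 11, 11.7 and 11.5 CPM in WT RNA-seq, a rise of 2.09 (SE 0.0762, edgeR adjusted p = 3.46e-12). Its NADcapPro levels were 44.5, 47.1 and 46.0 CPM in xrn1-H41A, against 13, 12.8 and 13 CPM in WT, so NADcapPro over RNA-seq was −0.03 (edgeR adjusted p = 0.594) in xrn1-H41A and 0.18 (edgeR adjusted p = 0.0613) in WT. PAU23 rose by 1.14 (SE 0.125, edgeR adjusted p = 7.79e-07), TIR2 by 1.05 (SE 0.0982, edgeR adjusted p = 1.27e-07) and COS10 by 1.04 (SE 0.0728, edgeR adjusted p = 5.16e-09), and COS10 was 0.98 without replicate 3. TIR1 was lower at −0.60 (edgeR adjusted p = 1.87e-07), TIR3 differed by 0.01 and DAN1 by −0.08 (edgeR adjusted p = 0.67).

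**Figure D5:**
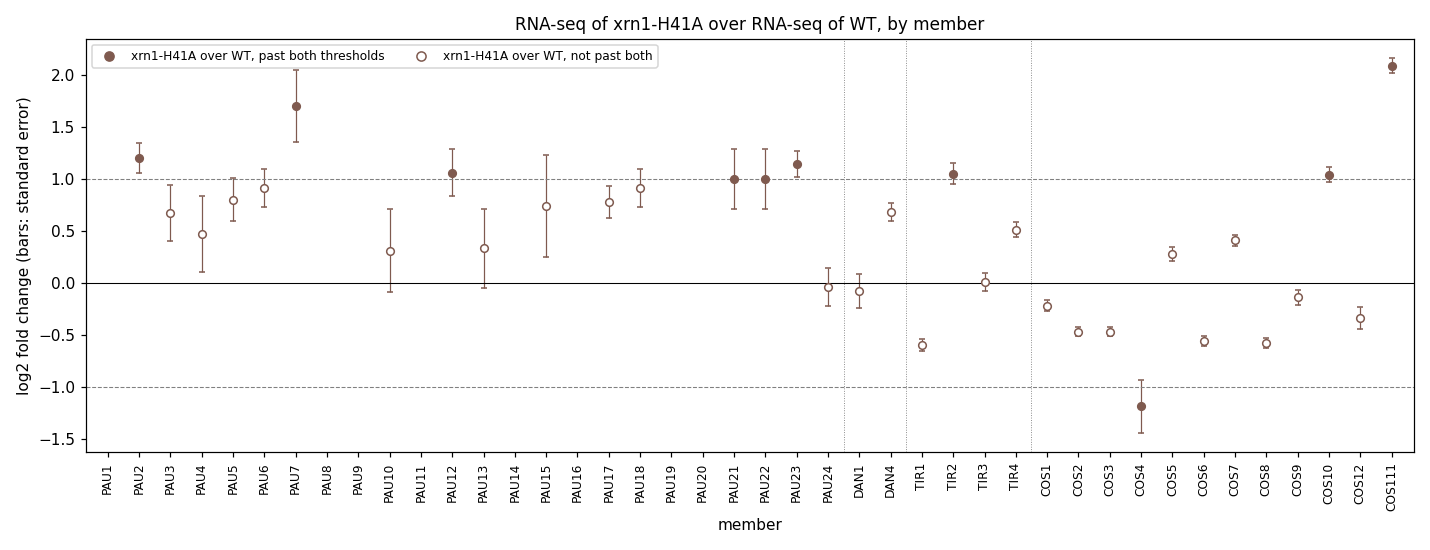
Log2 fold change of xrn1-H41A over WT in RNA-seq (y axis, bars are 1 SE) for each member that passed the count filter (x axis, grouped by family), with filled marks for those past both thresholds. COS111 at 2.09 is the highest member and COS4 at −1.19 the lowest.

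Position along the chromosome was set beside these values for the PAU family, as a description. In RNA-seq between strains, the median was 0.74 over 11 PAU members tested within 30 kb of a chromosome end and 1.14 over 5 farther in. For NADcapPro over RNA-seq the medians were 1.28 (12 members) and 0.67 (5 members) in xrn1-H41A, and 0.95 (16 members) and 0.86 (5 members) in WT. The 5 farther in were PAU2, PAU5, PAU7, PAU17 and PAU23. Between 50.8% (PAU2) and 89.7% (PAU5) of their 31-mers occurred in no other transcript. Nearer an end the highest such share was 37.1% (PAU3), and identical pairs such as PAU6 and PAU18 count there as separate members. Position thus cannot be separated here from how reads were divided among copies, and neither was tested.

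Genes outside the families that share their setting were counted for context, beside 14.3% enriched and 9.87% depleted of all transcripts in xrn1-H41A NADcapPro and 13.1% and 9.85% in WT NADcapPro. Of 8 genes otherwise induced without oxygen, among them ANB1 and HEM13, 2 were enriched in NADcapPro in xrn1-H41A and 3 in WT, with 0 depleted in either. Of 6 telomere silencing proteins, SIR2, SIR3 and SIR4 among them, 0 were enriched in either strain, and 1 was depleted in xrn1-H41A and 2 in WT. Of 15 genes in other subtelomeric families (YRF1, THI and FLO), 5 were enriched and 3 depleted in xrn1-H41A, against 1 and 3 in WT. In RNA-seq between strains, where 7.69% of all transcripts rose and 2.53% fell, 4 of those 15 rose in xrn1-H41A and 0 fell, 0 of the 8 anaerobic genes rose and 1 fell, and no silencing protein was called.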

How the data were processed

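The authors trimmed reads with fastp 0.23.2, removed rRNA reads with hisat2 and quantified transcripts with kallisto 0.48.0 on build R64, per the labels and the study's methods. They deposited estimated counts, rounded to whole numbers, for 20 libraries. Kallisto divides reads shared between copies by its model. The k-mer length was not given in the sources used here, and 31 was taken for counting shared sequence. Libraries were made from poly(A) RNA with a SMART-Seq and Nextera XT protocol, which has no molecular identifiers. The 3-count floor covers counting error only, and the SEs include the spread between replicates.

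Members were matched by RefSeq symbol (6103 of 6106 transcripts matched). The deposited estimated counts went into edgeR 4.0.16 (R 4.3.3, TMM, filterByExpr, quasi-likelihood test) with the compared groups alone. Family sums replaced their members in the same whole-table fit, and p-values were adjusted over all transcripts. Where the length trend was removed, each sum had the mean length of its members. For DAN this was 2191.5 nt, a length of neither gene (897 and 3486 nt). There were 9 comparisons: NADcapPro and SPAAC over RNA-seq and NADcapPro over SPAAC in each strain, RNA-seq between strains, and the strain difference of each capture. Members with values in every library were chosen by level per length in WT RNA-seq, share of own 31-mers and highest and lowest WT NADcapPro fold change, and all DAN and TIR genes were described. Other members are named after their values were seen. The members and lists were chosen with earlier results of these data known. Context lists, counted only, were anaerobic genes, regulators of anaerobic wall genes, telomere silencing proteins, GPI mannoproteins outside the families and other subtelomeric families.

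Alternatives were library totals, DESeq2 1.42.0 (size factors, Wald test, apeglm 1.24.0), no filter, a minimum of 10 counts, all 18 libraries in 1 fit, a replicate block, removal of the length trend, members with 10% own 31-mers, an adjusted p of 0.05 and leaving out each replicate. Replicates of a group differed by more than counting noise (chi-square per transcript 3.05 to 13.2), so none was counted as a duplicate. The file holds 2 libraries whose names match no single sample, the controls without ADPRC, and these were not used.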

Additional observations from a re-analysis of the deposited data

Results flagged for a closer look

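These values differed between strains under the same contrast, by edgeR's test of that difference at an adjusted p of at most 0.01 and at any fold, with xrn1-H41A over WT on the log2 scale. For NADcapPro over RNA-seq, the DAN sum differed by −0.91, the TIR sum by −0.67 and the COS sum by 0.19. Single genes past 2-fold were DAN1 (−2.70), TIR1 (−1.16), PAU5 (−1.20), PAU13 (−1.42), PAU4 (1.51) and COS4 (2.73). Those under 2-fold were TIR3 (−0.46), TIR4 (−0.82), PAU17 (0.80), PAU23 (0.69), the identical COS2 and COS3 (0.29 each), COS6 (0.35), COS7 (−0.29), COS10 (−0.93) and COS12 (0.72). For SPAAC over RNA-seq, the DAN sum differed by −0.52, PAU5 by −1.04, TIR1 by 0.36, TIR2 by −0.74 and TIR4 by −0.44. The PAU4, PAU5 and PAU13 values did not stay past both thresholds when single replicates were left out.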

How the results depend on the processing

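Leaving the leave-one-out values aside, 535 of 585 family sums and counts of members were unchanged, as were 755 of 800 values of single members. A sum or single member was unchanged if it kept its direction and side of the thresholds. A count was unchanged if it stayed within a set ratio of the main count, so it could still move by some members. With library totals in place of TMM, the median of all transcripts moved to 0.28 (xrn1-H41A) and 0.15 (WT) for NADcapPro over RNA-seq, −0.38 and −0.29 for SPAAC over RNA-seq, 0.85 and 0.63 for NADcapPro over SPAAC, 0.18 for RNA-seq between strains and 0.14 for the NADcapPro strain difference. Less these shifts, all values of family sums and named members lay within 0.05 of those by TMM, and all 14 that changed sign had their sign by TMM again. That follows from the arithmetic, since library totals move the values of a comparison by nearly the same amount. It is no separate support for the TMM values. With the shifts left in, NADcapPro over RNA-seq gave 2 depleted members in xrn1-H41A, and in WT a PAU sum of 1.07 and 3 depleted members. SPAAC over RNA-seq gave a COS sum of −0.26 with 0 enriched and 7 depleted members in xrn1-H41A, and DAN −1.27, COS −0.18 and 0 enriched members in WT. NADcapPro over SPAAC gave TIR 0.64, 21 higher and 1 lower in xrn1-H41A, and PAU 1.41, TIR 1.16, COS −0.55, 23 higher and 0 lower in WT. RNA-seq between strains gave PAU 1.04, TIR 0.14 and COS 0.02. Single members that changed sign were PAU5 (0.09), TIR1 (0.12) and COS111 (0.22) in xrn1-H41A NADcapPro, PAU4 (0.04) in WT NADcapPro, TIR3 (−0.29) and COS6 (−0.12) in xrn1-H41A SPAAC, COS6 (−0.08) and COS12 (−0.15) in WT SPAAC, and DAN1 (0.10) in RNA-seq between strains. With the length trend removed, NADcapPro over RNA-seq gave a PAU sum of 0.69 in xrn1-H41A, and TIR 0.78 with 8 enriched and 9 depleted members in WT. SPAAC over RNA-seq gave DAN −0.87, 0 enriched and 5 depleted in xrn1-H41A and 0 enriched in WT, and NADcapPro over SPAAC in xrn1-H41A gave TIR 0.02 and 5 lower. The strain difference of NADcapPro was −1.02 for DAN, and that of SPAAC was 0.05 for TIR with 0 members lower. Changed signs were COS111 (0.38) in xrn1-H41A NADcapPro, TIR3 (−0.27) and COS111 (0.72) in xrn1-H41A SPAAC, TIR2 (−0.12), COS12 (−0.04) and COS111 (0.58) in WT SPAAC, TIR3 (−0.05) in RNA-seq between strains and DAN4 (−0.08) in the NADcapPro strain difference. A minimum of 10 counts gave 8 enriched members in WT NADcapPro, 0 in WT SPAAC and 1 higher in the NADcapPro strain difference, as did no filter (1). DESeq2's Wald test and apeglm each gave 0 enriched in WT SPAAC, and these and DESeq2 size factors each gave 0 lower in the SPAAC strain difference, where an adjusted p of 0.05 gave 3. All 18 libraries in 1 fit gave 4 depleted in xrn1-H41A SPAAC, and TIR 0.05 with 5 lower for NADcapPro over SPAAC in xrn1-H41A. The PAU sum over members with at least 10% own 31-mers was 0.21 in WT SPAAC over RNA-seq. Without COS111, an alternative chosen after seeing the data, the COS sum was −1.08 for NADcapPro over SPAAC in xrn1-H41A. Replicate numbers did not pair the samples, and a replicate block gave 1 member higher in the NADcapPro strain difference (PAU4 at 1.46 was lost) and 0 lower in the SPAAC one.

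Leaving out each replicate in turn gave, for SPAAC over RNA-seq, 2 to 5 depleted members in xrn1-H41A, and in WT a PAU sum of −0.06 to 0.01, a DAN sum of −1.03 to −0.87 and 0 to 1 enriched members. RNA-seq between strains gave 5 to 12 members risen and 0 to 1 fallen. The NADcapPro strain difference gave 1 member higher each time and 2 to 4 lower (2 without replicate 2), and the SPAAC one 0 to 1 lower. Values that changed sign ranged from −0.44 to 0.02 for PAU5 in xrn1-H41A NADcapPro, −0.35 to 0.22 for PAU4 in WT NADcapPro, −0.50 to 0.03 for PAU5 in xrn1-H41A SPAAC, −0.44 to 0.27 for COS4 in WT SPAAC, and −0.02 to 0.62 for PAU13 and −0.06 to 0.09 for TIR3 in RNA-seq between strains. The cause of these changes was not tested. Depth limits the low PAU members most, since 3 counts are worth up to 0.23 CPM.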

Other observations

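Some PAU genes at few counts had more of them in NADcapPro than in RNA-seq libraries of a strain. PAU15 had 80, 70 and 57 counts in xrn1-H41A NADcapPro, against 11, 13 and 10 counts in xrn1-H41A RNA-seq, and 47, 35 and 35 counts in WT NADcapPro, against 7, 5 and 5 counts in WT RNA-seq. PAU19 had 42, 43 and 26 counts in xrn1-H41A NADcapPro, against 3, 5 and 2 counts in xrn1-H41A RNA-seq. PAU20 had 7, 6 and 9 counts in xrn1-H41A NADcapPro, against 6, 1 and 9 counts in xrn1-H41A RNA-seq, where the groups overlapped, and 19, 13 and 12 counts in WT NADcapPro, against 1, 0 and 4 counts in WT RNA-seq. PAU9 was at 0 in every xrn1-H41A NADcapPro and RNA-seq library. These genes were named after their values were seen and pass a count filter where they are high, and PAU9 has no 31-mer of its own, so the division of reads among copies bears on all of them and was not tested. PAU8 and PAU16 passed the count filter in no comparison.

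Over all transcripts, 14.3% were enriched and 9.87% depleted in NADcapPro over RNA-seq in xrn1-H41A, and 13.1% and 9.85% in WT. Of 8 regulators of anaerobic wall genes, 0 were enriched and 1 depleted in NADcapPro over RNA-seq in xrn1-H41A, and 1 and 1 in WT. Of 7 GPI mannoproteins outside the families, 2 were enriched and 0 depleted in xrn1-H41A, and 1 and 1 in WT.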
